A study of Mus musculus with 16 samples.

Results

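Expression was examined for 9 genes of the citric acid cycle and of the malate shuttle in limb muscles of mice that carry a mutant human SOD1 transgene and of mice without it. The genes were Cs, Idh2, Idh3a, Idh3b, Idh3g, Ogdh, Fh1, Mdh1 and Mdh2, chosen by symbol from the 4929 genes that are the only symbol of a probe set in the table. All probe sets whose only gene symbol in the platform annotation was one of these were taken. They came to 17 of the 7729 probe sets in the deposited table, at least 1 for each of the 9 genes. All 17 lay above the filter on dim signals, so none was lost to it.

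Muscle was taken from female C57BL/6 mice aged 7 weeks, which the series calls presymptomatic. The transgenic group carried human SOD1 with the G93A substitution, a model of amyotrophic lateral sclerosis (ALS), and the control group was non-transgenic (NTg). The sources used here do not state the transgene's promoter or copy number. Gastrocnemius, in the calf, and triceps, in the upper foreleg, came from 4 mice of each genotype, which gave 4 groups of 4 arrays, and all groups shared the same strain, sex and age. A whole muscle also holds vessels, nerve, fat and connective tissue. In bulk muscle, fewer cells of a type and less RNA per cell cannot be told apart.

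The citric acid cycle oxidises acetyl groups in the mitochondrial matrix and passes the electrons, as NADH and FADH2, to the respiratory chain. In muscle its enzymes are most abundant in oxidative fibres, and citrate synthase activity is widely used as a measure of mitochondrial content. The malate-aspartate shuttle carries electrons of cytosolic NADH into the matrix, with one malate dehydrogenase on each side of the inner membrane. Cs encodes citrate synthase, which makes the first step of the cycle. Idh3a, Idh3b and Idh3g encode the catalytic and the 2 other kinds of subunit of the NAD+-dependent isocitrate dehydrogenase. Idh2 encodes the mitochondrial NADP+-dependent isocitrate dehydrogenase, a source of NADPH for antioxidant defence. Ogdh encodes the first enzyme of the oxoglutarate dehydrogenase complex, Fh1 fumarase, Mdh2 the mitochondrial and Mdh1 the cytosolic malate dehydrogenase.

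Values are log2 signals, so a difference of 1 is a doubling. Array medians lay between 7.10 and 7.26, and precision is limited by having 4 arrays per group. Ckm, which encodes muscle creatine kinase, was between 12.76 and 14.71 and Acta1, skeletal muscle actin, between 12.81 and 14.69, so both labelled muscles had these markers on every array. NTg triceps replicates 1 and 2 and SOD1-G93A triceps replicate 2 stood apart, with Ckm at 12.84, 13.02 and 12.76, while the other 5 triceps arrays had at least 13.84. The mean of the 9 genes was 10.50, 10.34 and 10.34 on those 3 arrays and between 10.45 and 10.75 on the other triceps arrays. For some muscle and genotype values of the 9 genes, and some muscle values of the lists, the value without them is given too. A value given alone is with all arrays and may depend on them. Genotype values of the lists are given with all arrays only. Sod1 in the table is named as the mouse gene, so its signal (9.92 to 11.55 over all arrays) checks no genotype label.

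**Figure D1:**
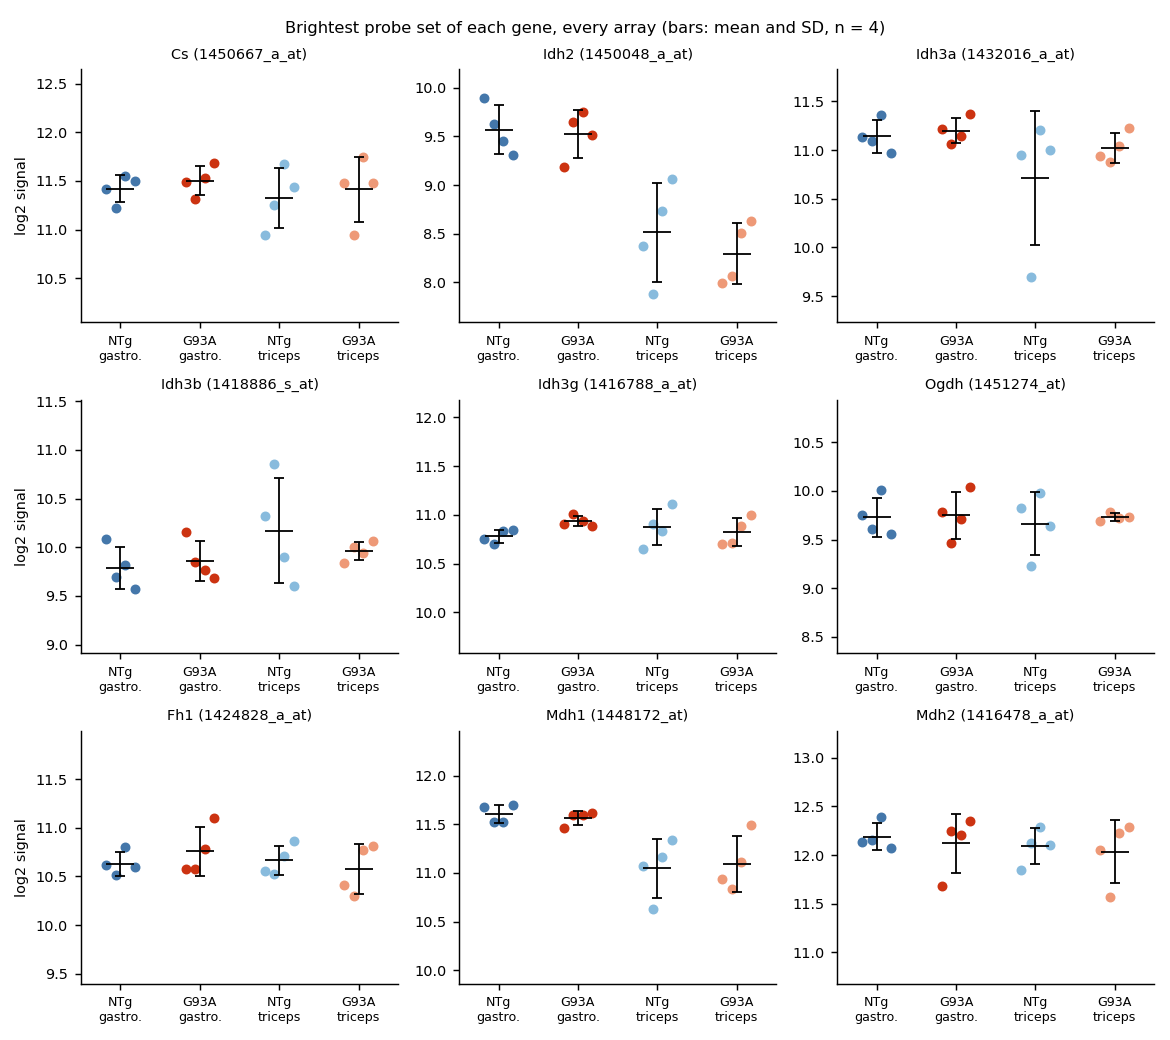
Log2 signal (vertical axis) of the brightest probe set of each of the 9 genes on every array, in the 4 groups of genotype and muscle (horizontal axis); points are arrays, and bars give the mean and SD of 4 arrays. Every panel spans the same number of log2 units. Idh2 has group means of 9.57 and 9.52 in gastrocnemius and 8.51 and 8.30 in triceps, while the other panels show groups that overlap or differ less.

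The first comparison asked whether the transgene changed these genes before symptoms, and it changed none of them detectably in either muscle. In gastrocnemius 0 of 17 probe sets passed limma's test at a Benjamini-Hochberg adjusted p under 0.05, against 0 of 4637 tested probe sets (0%). At an unadjusted p under 0.05 the counts were 0 of 17 and 103 of 4637 (2.22%). In triceps 0 of 17 passed, again against 0%, and 0 of 17 had an unadjusted p under 0.05, against 118 of 4637 (2.54%). Averaged over both muscles, with the mouse as a random block, 0 of 17 passed (0% of all), and the unadjusted counts were 0 of 17 and 85 of 4637 (1.83%).

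Citrate synthase was level between the genotypes in its brightest probe set. In gastrocnemius Cs (1450667_a_at) was at 11.41, 11.23, 11.55 and 11.50 in NTg replicates 1 to 4 and at 11.48, 11.32, 11.53 and 11.68 in SOD1-G93A, a difference of 0.08 (SE 0.17, limma's adjusted p = 0.999). In triceps the NTg values were 10.95, 11.25, 11.68 and 11.43 and the SOD1-G93A values 11.48, 10.95, 11.75 and 11.48, a difference of 0.09 (SE 0.17, limma's adjusted p = 0.994). The groups overlapped in both muscles. A dimmer Cs probe set (1422577_at) had the largest genotype difference of the 17 in triceps, 0.42 (SE 0.27), with a 95% interval from -0.15 to 0.99. That value rests on NTg triceps replicate 2, which read 7.97 where the other NTg triceps arrays read 9.44, 9.64 and 9.09. Without that array the difference was 0.07, and without the 3 arrays with low Ckm it was 0.14.

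No subunit of NAD+-dependent isocitrate dehydrogenase passed the test between genotypes. In gastrocnemius the SOD1-G93A minus NTg difference was 0.06 (SE 0.23) for Idh3a (1432016_a_at), 0.07 (SE 0.20) for Idh3b (1418886_s_at) and 0.15 (SE 0.11) for Idh3g (1416788_a_at). For Idh3g (1416788_a_at) the NTg gastrocnemius arrays read 10.76, 10.70, 10.83 and 10.84 and the SOD1-G93A arrays 10.91, 11.01, 10.94 and 10.89. These 4 and 4 arrays did not overlap, the only such case among the 17 probe sets in gastrocnemius, where 2.7% of all tested probe sets had groups that did not overlap. The difference had an adjusted p of 0.999 by limma, and the other Idh3g probe set (1416789_at) gave 0.01 (SE 0.15). In triceps 0 of 17 probe sets had groups that did not overlap, against 0.949% of all.

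In triceps the Idh3 values again turned on NTg replicate 2. Idh3a (1432016_a_at) was at 10.95, 9.69, 11.21 and 11.01 in NTg triceps and at 10.94, 10.88, 11.04 and 11.22 in SOD1-G93A triceps. One NTg array lay more than a doubling below all others. The difference of 0.31 (SE 0.23) was -0.03 without it, and that of Idh3b went from -0.21 (SE 0.20) to 0.02. Neither passed with or without the array. Without the 3 arrays with low Ckm the differences of Idh3a and Idh3b were -0.04 and 0.20, with no call.

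Idh2, the NADP+-dependent enzyme, was alike between genotypes in gastrocnemius, with a difference of -0.05 (SE 0.22, 95% interval -0.51 to 0.42). In triceps it was lower in SOD1-G93A by an amount within the replicate spread, -0.22 (SE 0.22, 95% interval -0.68 to 0.25). Without NTg triceps replicate 2, whose Idh2 signal of 7.89 was the lowest of all 16 arrays, that difference was -0.43 (unadjusted p = 0.0441, limma's adjusted p = 1), and without the 3 arrays with low Ckm it was -0.52 (unadjusted p = 0.0257, limma's adjusted p = 0.997). No call came of this difference under either setting. The 3 arrays include NTg triceps replicates 1 and 2, whose Idh2 signals of 8.38 and 7.89 were the lowest in that group.

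Further round the cycle, Ogdh differed by 0.02 (SE 0.16) in gastrocnemius and 0.07 (SE 0.16) in triceps. Fh1 differed by 0.13 (SE 0.14) and -0.09 (SE 0.14) in the same order. The mitochondrial malate dehydrogenase Mdh2 (1416478_a_at) differed by -0.07 (SE 0.17) and -0.06 (SE 0.17), and its cytosolic counterpart Mdh1 (1448172_at) by -0.04 (SE 0.15) and 0.04 (SE 0.15). Without the 3 arrays with low Ckm this Mdh1 difference in triceps was -0.07. The smallest unadjusted p among the 17 probe sets in gastrocnemius, 0.159, belonged to a second Mdh1 probe set (1436834_x_at) at -0.24 (SE 0.17), which missed the threshold by limma (adjusted p = 0.999). None of these enzymes therefore showed a genotype difference beyond its error.

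The 95% intervals differed between probe sets. Over the 17 probe sets the 95% intervals in gastrocnemius reached from -0.64 to 0.54, a signal 1.55-fold lower to 1.46-fold higher in SOD1-G93A. In triceps they reached from -0.68 to 0.99, or 1.61-fold lower to 1.98-fold higher. Averaged over both muscles they reached from -0.50 to 0.60. These are the extremes, set by the noisiest probe sets, and others were tighter: in gastrocnemius Mdh2 (1433984_a_at) ran from -0.19 to 0.25 and Idh3g (1416788_a_at) from -0.08 to 0.38.

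**Figure D2:**
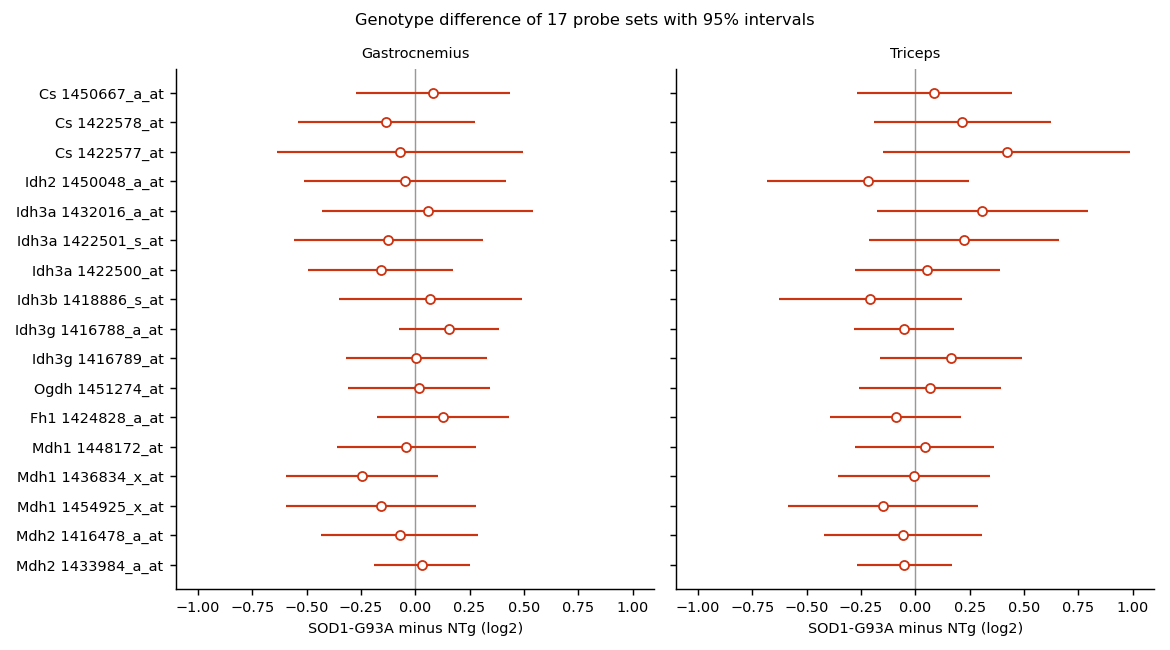
SOD1-G93A minus NTg difference in log2 signal (horizontal axis) for each of 17 probe sets (vertical axis) in gastrocnemius (left) and triceps (right); circles are limma's estimates and lines their 95% intervals. Every interval crosses 0. The widest, for Cs 1422577_at in triceps, runs from -0.15 to 0.99.

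Taken as a set, the 9 genes were centred near 0 in both muscles. With each gene represented by its brightest probe set, 6 of 9 lay above 0 in gastrocnemius (median 0.06, against -0.01 over all tested probe sets) and 4 of 9 in triceps (median -0.05, against 0.02). Over both muscles 6 of 9 were above 0 with a median of 0.02, and all tested probe sets had a median of 0.0047. The genotype effect was also compared between the muscles. For this difference 0 of 17 probe sets passed (0% of all), and 0 of 17 had an unadjusted p under 0.05, against 86 of 4637 (1.85%). The largest difference of effects was that of Cs (1422577_at) at -0.49 (SE 0.38), which was -0.13 without NTg triceps replicate 2.

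The other enzymes of the pathway gave the same counts. Of 10 further citric acid cycle genes listed, 9 were tested with 12 probe sets, and 0 passed over both muscles. Dlst, a further component of the oxoglutarate dehydrogenase complex, came first by p at -0.15 (SE 0.10), then Sdhd, a membrane anchor of succinate dehydrogenase, at -0.28 (SE 0.20). Of 14 genes of pyruvate entry 7 were tested and 0 passed. Of 15 shuttle partners and cytosolic branches 8 were tested and 0 passed. By probe set 10 of 11 lay above 0, and by gene 7 of 8, against 51.3% of all tested probe sets. Probe sets of 1 gene are not separate genes, and all share the same arrays. Me1, the cytosolic malic enzyme, had the smallest p of these at 0.42 (SE 0.20), with a further Me1 probe set at 0.11. Each of these had a limma adjusted p of 0.997.

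The second comparison set gastrocnemius against triceps, and here Idh2 and Mdh1 differed while the other 7 genes did not pass. Idh2 was 2.21-fold higher in gastrocnemius and Mdh1 was 1.43-fold higher by its brightest probe set. limma called 2 of 17 probe sets over both genotypes, both higher in gastrocnemius, against 171 of 4637 called in either direction (3.69%) and 98 called higher in gastrocnemius (2.11%). Of the 17 probe sets 14 lay above 0. By gene, 8 of 9 were above 0 with a median of 0.09, while all tested probe sets had a median of -0.00418 and 49.0% of them lay above 0. This lean rests on the 3 triceps arrays with low Ckm: without them 3 of the 9 genes were above 0 and their median was -0.02, with the same 2 probe sets called.

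Idh2 (1450048_a_at) was at 9.89, 9.62, 9.45 and 9.31 in NTg gastrocnemius replicates 1 to 4 and at 9.18, 9.65, 9.75 and 9.52 in SOD1-G93A gastrocnemius. In triceps it was at 8.38, 7.89, 8.73 and 9.07 in NTg and at 7.99, 8.06, 8.50 and 8.63 in SOD1-G93A. All 8 gastrocnemius arrays lay above all 8 triceps arrays, which was so for 58 of 4637 tested probe sets (1.25%). The difference was 1.14 (SE 0.16, 95% interval 0.81 to 1.47), with limma's adjusted p at 0.000168. It ranked 29 of 4637 by p. It follows that within single mice the gastrocnemius value was higher in 8 of 8, here by 0.24 to 1.74 with a median of 1.22.

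The Idh2 difference was present in each genotype taken alone. In NTg it was 1.06 (SE 0.22, limma's adjusted p = 0.0181), where 1 of 17 probe sets was called against 57 of 4637 (1.23%), or 53 (1.14%) called higher in gastrocnemius. In SOD1-G93A it was 1.23 (SE 0.22, limma's adjusted p = 0.00743), where 1 of 17 was called against 48 of 4637 (1.04%), or 38 (0.819%) called higher. The difference between the muscle effects in NTg and SOD1-G93A was 0.17 (SE 0.31, 95% interval -0.49 to 0.83, limma's adjusted p = 0.999). In order of mean level, NTg gastrocnemius (9.57 ± 0.25, SD, n = 4) and SOD1-G93A gastrocnemius (9.52 ± 0.25) did not differ beyond their spread, nor did NTg triceps (8.51 ± 0.51) and SOD1-G93A triceps (8.30 ± 0.32) below them. The NTg call is the less firm. It ended without NTg gastrocnemius replicate 1 (limma's adjusted p = 0.0973) or 2 (0.0678), without NTg triceps replicate 1 (0.051) or 2 (0.0522), and without the 3 arrays with low Ckm (difference 0.67, adjusted p = 0.18).

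Over both genotypes the Idh2 call held without those 3 arrays, at 0.91 (SE 0.13, limma's adjusted p = 0.000533). With the mouse as a block, which raised the count over all probe sets from 171 to 318, Idh2 stayed at 1.14 (SE 0.15, limma's adjusted p = 0.000542) and Mdh1 at 0.51 (SE 0.09, limma's adjusted p = 0.00643), and the count of the 17 remained 2.

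Mdh1, the cytosolic malate dehydrogenase, was read by 3 probe sets that did not agree. The brightest (1448172_at) was at 11.68, 11.53, 11.52 and 11.70 in NTg gastrocnemius and at 11.46, 11.60, 11.60 and 11.61 in SOD1-G93A gastrocnemius. In triceps it was at 11.07, 10.63, 11.16 and 11.34 in NTg and at 10.94, 10.83, 11.11 and 11.49 in SOD1-G93A. The muscles overlapped only through SOD1-G93A triceps replicate 4 at 11.49, above the lowest gastrocnemius array at 11.46. The difference was 0.51 (SE 0.11, 95% interval 0.29 to 0.74, limma's adjusted p = 0.0104), and gastrocnemius was higher in 8 of 8 mice, by 0.13 to 0.90. Without the 3 arrays with low Ckm it was 0.37 (SE 0.09, limma's adjusted p = 0.0293).

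Both other Mdh1 probe sets carry the suffix _x_at, by which the maker marks probes that may also match other transcripts. They gave -0.06 (SE 0.12, 95% interval -0.31 to 0.19) for 1436834_x_at and 0.05 (SE 0.15, 95% interval -0.26 to 0.36) for 1454925_x_at. Gastrocnemius was higher than triceps in 4 of 8 and 5 of 8 mice. Without the 3 arrays with low Ckm they gave 0.13 (SE 0.10) and 0.31 (SE 0.11, unadjusted p = 0.012, limma's adjusted p = 0.19), so all 3 Mdh1 probe sets then lay above 0, and 1448172_at was the one that passed with and without those arrays. Within the genotypes alone 1448172_at missed the threshold, at 0.56 (SE 0.15, limma's adjusted p = 0.108) in NTg and 0.47 (SE 0.15, limma's adjusted p = 0.237) in SOD1-G93A. In NTg 2 of the 17 probe sets, Idh2 and this one, had 4 gastrocnemius arrays all above 4 triceps arrays, against 3.86% of all tested probe sets, and in SOD1-G93A this held for Idh2 only, against 4.27%.

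**Figure D3:**
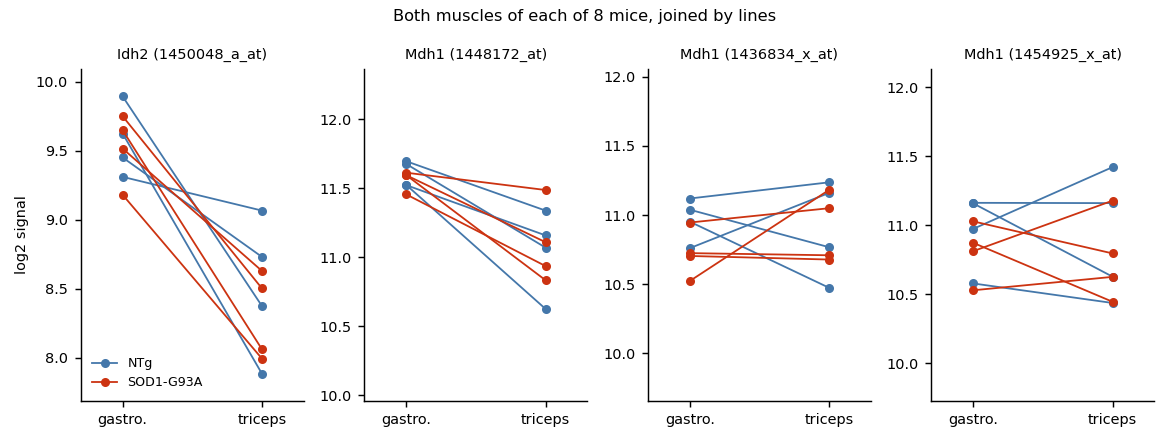
Log2 signal (vertical axis) in gastrocnemius and triceps (horizontal axis) of 8 mice, with lines joining both muscles of a mouse, for the Idh2 probe set and the 3 Mdh1 probe sets; blue is NTg and red SOD1-G93A. All 8 lines fall from gastrocnemius to triceps for Idh2 and for Mdh1 1448172_at, and they run both ways for the 2 other Mdh1 probe sets.

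The mitochondrial malate dehydrogenase came next. Mdh2 (1433984_a_at) was at 11.92, 11.85, 11.90 and 12.03 in NTg gastrocnemius and 11.82, 11.99, 11.95 and 12.06 in SOD1-G93A gastrocnemius. In triceps it was at 11.68, 11.87, 11.70 and 11.81 in NTg and at 11.67, 11.61, 11.72 and 11.86 in SOD1-G93A. The groups overlapped slightly, gastrocnemius was higher in 7 of 8 mice, and the difference of 0.20 (SE 0.07, 95% interval 0.04 to 0.35) missed the threshold by limma (adjusted p = 0.135). It was 0.19 without the 3 arrays with low Ckm and -0.01 after quantile normalization. The other Mdh2 probe set (1416478_a_at) gave 0.09 (SE 0.12), and -0.04 without those arrays.

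The remaining 6 genes had no probe set that passed between muscles. Cs was at 0.09 (SE 0.12), 0.15 (SE 0.14) and 0.37 (SE 0.19) in its 3 probe sets, from the brightest to the dimmest. Idh3a was at 0.30 (SE 0.16), 0.07 (SE 0.15) and -0.04 (SE 0.11) in the same order. Idh3b, at -0.24 (SE 0.14), was the lowest of the 17, and was lower in gastrocnemius in 7 of 8 mice. Without the 3 arrays with low Ckm the Cs values were -0.10, -0.06 and 0.17 in the same order, and those of Idh3a (1432016_a_at) and Idh3b were 0.08 and -0.02. Cs (1422577_at) came nearest to a call in NTg alone, at 0.61 (SE 0.27, 95% interval 0.04 to 1.18, limma's adjusted p = 0.35), a value of 0.28 without those arrays. With the mouse as a block over both genotypes it had an unadjusted p of 0.0141 and Idh3a (1432016_a_at) one of 0.041, with limma's adjusted p at 0.09 and 0.162. Idh3g was at 0.01 (SE 0.08) by 1416788_a_at and 0.13 (SE 0.11) by 1416789_at, Ogdh at 0.04 (SE 0.11) and Fh1 at 0.07 (SE 0.10). The 95% interval of Ogdh ran from -0.19 to 0.27 and that of Fh1 from -0.14 to 0.29, so for these a muscle difference as large as that of Idh2 lies outside the interval.

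**Figure D4:**
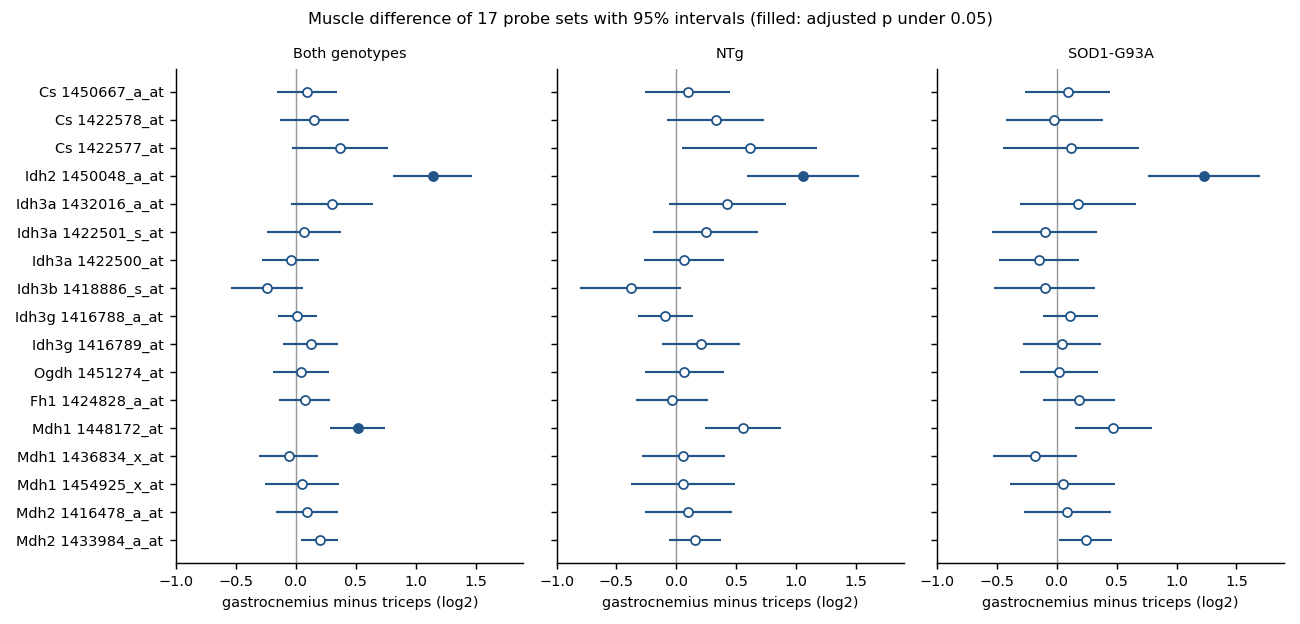
Gastrocnemius minus triceps difference in log2 signal (horizontal axis) for 17 probe sets (vertical axis) over both genotypes (left), in NTg (middle) and in SOD1-G93A (right); circles are limma's estimates, filled where the adjusted p was under 0.05, and lines are 95% intervals. Idh2 is filled in all 3 panels, at 1.14, 1.06 and 1.23, and Mdh1 1448172_at at 0.51 over both genotypes only.

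The promoters of the called genes Idh2 and Mdh1, and of Mdh2 as the mitochondrial counterpart of Mdh1, are shown as the DNA from which these transcripts start. Each run holds the 250 bases before the RefSeq start site (GRCm38.p6), 5′ to 3′ on the gene's strand, at chr7:80115351-80115600 (minus strand) for Idh2, chr11:21571935-21572184 (minus strand) for Mdh1 and chr5:135778399-135778648 (plus strand) for Mdh2. Capitals mark GGGCGG or its reverse complement CCGCCC, the core letters bound by Sp factors.
Idh2: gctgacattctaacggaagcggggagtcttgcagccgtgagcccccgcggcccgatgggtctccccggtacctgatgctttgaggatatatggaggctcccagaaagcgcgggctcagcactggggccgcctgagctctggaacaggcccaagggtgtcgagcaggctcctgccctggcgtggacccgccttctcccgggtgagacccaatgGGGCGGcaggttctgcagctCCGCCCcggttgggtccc
Mdh1: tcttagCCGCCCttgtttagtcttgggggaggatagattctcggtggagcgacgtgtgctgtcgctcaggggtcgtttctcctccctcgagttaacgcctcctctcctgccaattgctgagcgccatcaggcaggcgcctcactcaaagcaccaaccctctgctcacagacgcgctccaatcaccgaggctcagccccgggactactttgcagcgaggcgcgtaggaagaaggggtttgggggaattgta
Mdh2: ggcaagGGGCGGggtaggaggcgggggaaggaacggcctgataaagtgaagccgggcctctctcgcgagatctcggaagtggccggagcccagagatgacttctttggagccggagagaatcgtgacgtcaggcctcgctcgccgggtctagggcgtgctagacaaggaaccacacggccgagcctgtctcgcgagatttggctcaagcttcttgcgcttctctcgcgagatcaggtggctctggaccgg

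RefSeq promoter entries matched 8 of the 9 genes, all but Idh3a. On either strand of these 250 bases, GGGCGG occurred in 6 of the 8 genes (Cs, Fh1, Idh2, Mdh1, Mdh2 and Ogdh), counting a gene that held it in any of its entries, and in 35.4% of all 27025 genes counted in that way. Ogdh has 6 of the 13 entries and the others 1 each, and by entry the counts were 7 of 13 and 32.7% of 32851. Idh2 had it 2 times, with first bases 38 and 18 bases before the start, Mdh1 1 time at 244 and Mdh2 1 time at 244. TNAAGGTCA, letters bound by oestrogen-related receptors, which act on many genes of oxidative metabolism, occurred in 0 of the 8 and in 1.3% of all genes (1.14% of entries). The loose consensus of MEF2, a muscle transcription factor, occurred in 0 of the 8 and in 3.7% of all genes (3.2% of entries). CANNTG, the E-box bound by myogenic factors among others, occurred in 7 of the 8, all but Idh2, and in 69.3% of all genes (66.2% of entries). The Idh2 and Mdh1 windows were 67.2% and 59.2% G or C and that of Mdh2 63.2%.

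Other genes of the pathway and of the mitochondrion were set beside the 9. Of the 9 further cycle genes tested 0 passed between muscles. Sdhc, a membrane anchor of succinate dehydrogenase, came first at 0.61 (SE 0.20, limma's adjusted p = 0.0972) by 1435986_x_at, while its other probe set read 0.00. Sdhb, the iron-sulphur subunit, was at 0.36 (SE 0.13). Without the 3 arrays with low Ckm these were 0.24, 0.16 and 0.11. Of 7 pyruvate entry genes tested 0 passed, with Pdha1, the catalytic subunit of pyruvate dehydrogenase, at 0.97 (SE 0.31, limma's adjusted p = 0.0897) and 0.29 (SE 0.13) in 2 probe sets, or 0.54 and 0.09 without those arrays. Mpc1, a subunit of the mitochondrial pyruvate carrier, was at 0.40 (SE 0.15, limma's adjusted p = 0.143), and without those arrays it passed at 0.30 (SE 0.07, limma's adjusted p = 0.0264). Of 8 shuttle and branch genes 0 passed, 6 were above 0 and the median was 0.17. Without the 3 arrays with low Ckm, 3 of the 8 were above 0, the median was -0.01 and 0 passed. With all arrays Slc25a11, the mitochondrial carrier that exchanges malate for oxoglutarate, was at 0.32 (SE 0.16). The aspartate aminotransferases Got1 and Got2 were at 0.33 (SE 0.20) and 0.27 (SE 0.14) with all arrays.

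No respiratory chain subunit passed, with 0 of 33 probe sets called. By probe set 26 of 33 lay above 0, against 49.0% of all tested probe sets. Of 20 genes tested 19 were above 0 by their brightest probe set, with a median of 0.25. Without the 3 arrays with low Ckm 17 of the 20 were above 0 with a median of 0.05. Cox8b, a subunit of cytochrome c oxidase, came first at 0.39 (SE 0.12, limma's adjusted p = 0.0834), or 0.20 without those arrays. General skeletal muscle markers lay above 0 as well, in 8 of 8 genes with a median of 0.39, and 2 were called, Mb, myoglobin, which stores oxygen in oxidative fibres, and Ckmt2, the mitochondrial creatine kinase of muscle. Without those arrays 6 of 8 were above 0 with a median of 0.06, and Mb was called. Ckm is itself on this list, so part of that fall follows from how the arrays were chosen. The part of these markers in the values above was not tested. For 10 tested genes of mitochondrial carriers and content the median was 0.03, or -0.04 without those arrays, and 0 passed with or without them.

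Slow fibre markers differed widely between the muscles, while most fast fibre markers did not pass. All 13 slow fibre genes tested were called higher in gastrocnemius, with 18 of 19 probe sets called and a median of 4.13 (4.03 without the 3 arrays with low Ckm). The mean level of the slow fibre list lay between 10.17 and 11.14 on gastrocnemius arrays and between 5.52 and 8.77 on triceps arrays. Myl3 (1427768_s_at), a slow myosin light chain, had a mean of 11.89 in gastrocnemius and 5.18 to 9.18 in triceps, a measured difference of 5.25 (limma's adjusted p = 6.9e-08). Some of its triceps signals lay below the filter level of 6.75, so the size of that difference, and of the list's median, is not precise. Mb was at 1.03 (SE 0.15, limma's adjusted p = 0.000248), or 0.86 without the 3 arrays with low Ckm. Of 15 fast fibre genes 1 was called, Myh2, the myosin heavy chain of fast oxidative fibres, at 1.71 (SE 0.27, limma's adjusted p = 0.000899). Myh2 was at 1.41 without the 3 arrays with low Ckm. The fast fibre mean ran from 13.68 to 14.23 in gastrocnemius and from 12.51 to 14.06 in triceps. The median of the list, 0.50, was 0.01 without the 3 arrays with low Ckm. Ckm is itself on the fast fibre list, so part of that fall follows from how the arrays were chosen. The part of fibre type in the Idh2 and Mdh1 differences was not tested.

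Markers of other cell types were checked in the same comparison. Both Schwann cell genes in the table, Mbp and Pmp22, were called higher in gastrocnemius with all 4 of their probe sets, and their mean level was 7.90 to 9.54 there and 6.83 to 7.59 in triceps. Of 9 fibroblast and tendon genes 3 were called higher (1 without the 3 arrays with low Ckm, where the Schwann cell calls held), and of 4 adipocyte genes 1, Lpl, which muscle fibres also express. Endothelial and immune markers had 0 calls among 2 and 3 tested genes, and no erythroid marker was bright enough to test. Whether these cells contribute to the Idh2 signal was not tested.

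The members also varied among replicates of a group. The brightest probe sets of the 9 genes form 36 pairs, and in deviations from the group means over 16 arrays 27 pairs correlated above 0, with a median Pearson r of 0.40 and a range from -0.65 to 0.82, given as a description. The points share array, scaling and mouse. Probe sets of 1 gene ran together for Idh3a (r of 0.61 to 0.88), for Cs (0.39 to 0.85) and for Mdh2 (0.60). For Idh3g the pair had an r of -0.05. The 2 Mdh1 _x_at probe sets had an r of 0.80 with each other and of -0.34 and -0.27 with 1448172_at.

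NTg triceps replicate 2 lay farthest from its group. It had the lowest value of its group in 10 of 17 probe sets, as had SOD1-G93A triceps replicate 2. On that NTg array Idh3g read 9.99 by 1416789_at, against 10.81, 10.79 and 10.87 on the other NTg triceps arrays, but 10.91 by 1416788_a_at, within the range of the others. Idh3b went the other way, at 10.85 against 10.32, 9.90 and 9.60. The array was thus low for some probe sets of a gene and not for others.

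**Figure D5:**
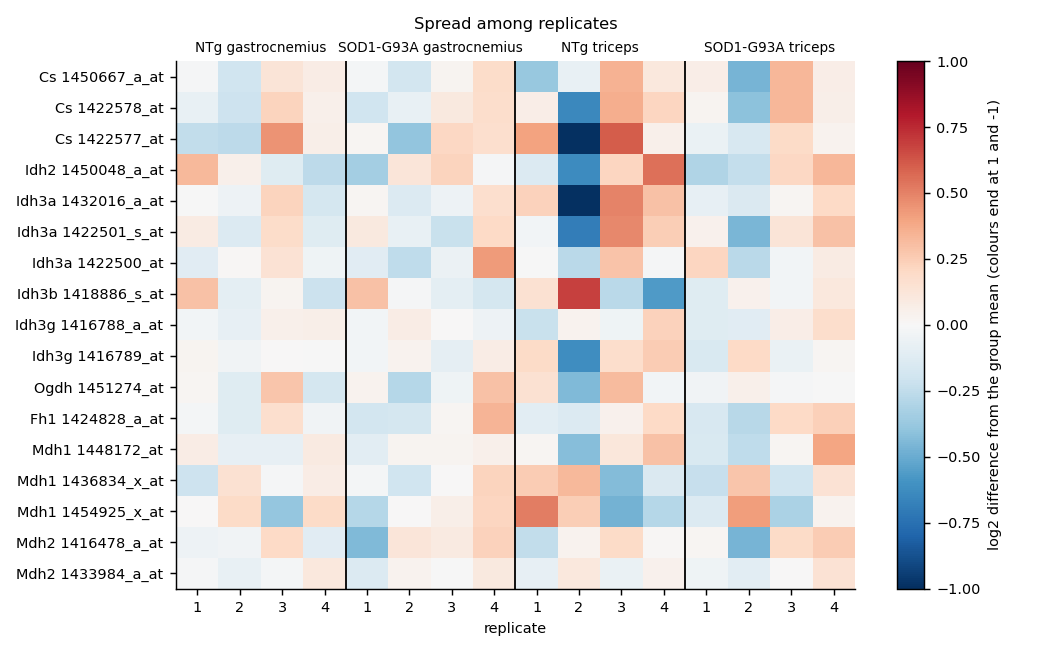
Difference of each array from the mean of its group in log2 signal (colour, red above and blue below, with the scale ending at 1 and -1) for 17 probe sets (rows) on 16 arrays (columns, replicates 1 to 4 of each group). NTg triceps replicate 2 is the column with the most blue, with Cs 1422577_at and Idh3a 1432016_a_at beyond the end of the scale.

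For each gene the tested probe set most like its brightest one was found from deviations from the group means over 16 arrays, among all other named genes. Idh2 was most like Myl3 (1428266_at, Pearson r of 0.91, and 0.86 without NTg triceps replicate 2), the slow myosin light chain. The triceps signals of that Myl3 probe set reached down to 5.17, below the filter level of 6.75. Idh3a was most like Slc25a11 (0.98, and 0.90 without NTg triceps replicate 2), the carrier of the malate shuttle. Mdh1 was most like Cycs (0.95), which encodes cytochrome c, and Cs most like Pgam2 (0.92), a glycolytic enzyme of muscle. Ogdh was most like Atp1b2 (0.92), Idh3b like Psmc3 (0.88, and 0.75 without that array), Mdh2 like Rpl13a (0.88), Fh1 like Cct3 (0.87) and Idh3g like Rps14 (0.85). Each r is the highest over all candidates, with no test, and is given as a description only.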

How the data were processed

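Total RNA of each muscle was labelled as biotinylated cRNA and hybridised to an Affymetrix array, per the labels' protocols. The authors deposited 1 log2 value per probe set and array, and the submitters' processing notes name only MAS5, with no version; the sources used here state neither the scaling nor how the 7729 probe sets were chosen. Base 2 was read from the range of the values (-0.77 to 14.81). Values were used as deposited. Of the probe sets 7053 have 1 symbol in the platform annotation, 330 several and 346 none, and gene names were taken from the 7053 alone.

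The test took the 4637 probe sets whose mean exceeded percentile 40 (log2 6.75), with limma 3.58.1 in R 4.3.3: lmFit on 4 group means over all 16 arrays, eBayes with an intensity trend, Benjamini-Hochberg over all tested probe sets, called under 0.05. The genotype average took the mouse as a random block (duplicateCorrelation, 0.185). The other comparisons, those between muscles included, took no block and so did not use the pairing of muscles within a mouse. Intervals are 95%. The fits were tested on simulated data. A gene is represented by its brightest probe set, and list genes are named by a call or the smallest p; Mb, Slc25a11, Got1, Got2 and Lpl were chosen for their role or after their values were seen. The members and lists were chosen with earlier results of these data known.

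The series gives both muscles from the same mice, and a replicate number was read as 1 mouse. After removing group means, both muscles of a number correlated at 0.14 to 0.39, and in 8 of 8 cases best with their own. Arrays of 1 number and muscle across genotypes come from different mice. They correlated at 0.00 to 0.37, and in 3 of 8 cases best with their own number. What a number shares beyond the mouse was not tested. The alternatives were quantile or median normalization, other filters, no trend, blocks, fits of 2 groups, and arrays left out; the lists without the 3 triceps arrays with low Ckm, and the promoter shares by gene, were added after seeing the data.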

Additional observations from a re-analysis of the deposited data

Results flagged for a closer look

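Of 68 groups of 4 arrays (17 probe sets in 4 groups), 2 held an array far from the other 3, where chance gives about 1 in 20. Idh3g (1416789_at) read 9.99 in NTg triceps replicate 2 and between 10.79 and 10.87 on the other NTg triceps arrays. Mdh1 (1448172_at) read 11.46 in SOD1-G93A gastrocnemius replicate 1 and between 11.60 and 11.61 on the other 3, so there the gap is small in size.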

How the results depend on the processing

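Over both genotypes 2 of the 17 probe sets, Idh2 and Mdh1 1448172_at, were called between muscles under every alternative run, Idh2 at 0.91 to 1.23 and Mdh1 at 0.37 to 0.58. No genotype or interaction result of a member was called under any alternative. The count of called probe sets over all genes, 171 for the muscles, was 318 with the mouse as a replicate block, 436 with a replicate set term that splits numbers 1 and 2 from 3 and 4, 103 without the 3 triceps arrays with low Ckm, and 99 to 272 with single arrays left out, lowest without SOD1-G93A triceps replicate 2. In NTg alone 57 became 88 with the replicate block, 90 with the replicate set, 36 with only those groups fitted, and 37 to 66 with arrays left out. There the members' count of 1 was 2 with the replicate set (Mdh1 joining, adjusted p = 0.0292), 0 with only those groups fitted (Idh2 adjusted p = 0.0977), 0 without the 3 arrays, and 0 to 1 with single arrays left out. In SOD1-G93A alone 48 became 23 to 58 with arrays left out. The cause was not tested. Of 119 member differences 68 changed sign in some alternative, none of them called, with values of at most 0.20 after the change.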
